A study of Mus musculus with 137 samples.

Results

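The uninjured young mouse lung was followed here over 6 weeks, by setting 5 lungs taken 56 days after saline against 5 lungs taken 14 days after saline. These 10 lungs are 7.3% of the lungs in the series, chosen by their labels alone and not by any measured value. All mice were male C57BL/6J with no engineered allele named in the labels. Both groups came from young mice, 8 to 12 weeks old, that received saline (NaCl) into the trachea. They differed in the day on which the lung was taken, so time since saline and growing older by 6 weeks cannot be told apart. Library numbers of the young lungs also rise with day, and those of day 56 stand after a gap in the numbering. Any effect of library order can therefore not be separated from day, and was not tested. The other saline groups compared here were 19 young lungs of days 21, 28, 35 and 42, 11 old lungs of day 56 and 6 old lungs of day 14, where old means 21 months. Old saline lungs of days 21, 28, 35 and 42 (6, 5, 6 and 6) were not compared. They entered the fit of both ages, where they count toward the filter and the spread. Untreated lungs, taken at day 0, came from 5 old and 4 young mice. The other lungs of the series had bleomycin, a chemotherapy agent used to provoke lung scarring. Its dose was 0.7 mg/kg for the young and 0.63 mg/kg for the old. The saline lungs are the reference for that injury, so a change among them between early and late days would be read as part of any bleomycin effect that is followed over time. Each library was made from 20 mg of one lung, and the labels do not say whether mice shared a litter or cage, so p-values measure the spread between these lungs.

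A mouse of this age has finished forming alveoli, but the lung still renews its surfactant-producing type 2 cells, thin gas-exchange type 1 cells, capillaries and matrix slowly. Matrix and growth genes are high in the newborn lung and are switched down as growth ends. Another family, the immediate early genes, is built for speed: transcription factors of the NR4A, EGR and FOS families are transcribed within minutes of a stimulus, from promoters that already carry CREB or serum response factor, and they respond to stress, hormones, stretch and also to the handling of tissue.

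Messenger RNA was read by poly-A sequencing, and values are CPM (read counts scaled to a common library size) or log2 fold changes ± standard error from edgeR's quasi-likelihood test. A gene is called when its Benjamini-Hochberg adjusted p over all tested genes is under 0.05. The 33 young uninjured libraries held 17.31 to 31.02 M reads on genes, and 17152 genes were tested. The deepest was day 56 replicate 2, with 31.02 M reads, where mitochondrial transcripts took 0.534% of reads, against 1.18 to 1.52% in the other 32 libraries. Over the 7 tested mitochondrial genes the median log2 fold change between the days was -0.19 with this lung and 0.03 without it. The tissue markers were those of lung in both groups. The surfactant gene Sftpc averaged 16571 ± 3998 CPM at day 56 and 14450 ± 769 CPM at day 14 (SD, n = 5 each), and the club cell secretoglobin Scgb1a1 averaged 17790 ± 3102 CPM at day 56 and 17604 ± 3091 CPM at day 14.

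Between these days 48 genes rose (0.28% of the genes tested) and 5 fell (0.0292%), while 13.8% of all genes had an unadjusted p under 0.05, the share against which such counts in the gene lists are to be read. Most transcripts of the lung stayed within narrow limits: for 15584 of the 17152 genes, or 90.9%, the 95% interval of the log2 fold change lay between -1 and 1. Among the 48 genes that rose the log2 fold change ran from 0.21 to 4.62 with a median of 0.65, and 12 rose by more than 2-fold. The largest, also among the 12, was Col10a1, which could pass the filter on 4 lungs of day 56 alone. Of the 48, 19 read higher in every lung of day 56 than in any of day 14, as did 1.1% of all genes tested (2.19% in either direction), and since the same values chose the genes nothing is read from this. By known role they were 10 regulators of transcription, 6 kinases, phosphatases and stress sensors, 6 genes of matrix, cartilage and adhesion, 5 surface receptors and ligands, 5 carriers, channel subunits and metabolic enzymes, 2 genes of Notch signalling, 9 other protein-coding genes, and 5 small nucleolar RNAs, pseudogenes or unclassified transcripts whose reads may be shared with related copies or with a host gene, as for Gm22748, which lies within Odc1 on the same strand. These roles were assigned after the genes were known. The count is fragile. It was 1 higher and 0 lower when edgeR was fitted on the 10 compared lungs alone, where the 1 gene was none of the 48. There 52 of the 53 genes were tested, each with an unadjusted p under 0.05, which the choice of genes from these same lungs makes likely. It moved by more than 1.5 times when any of 8 of the 10 lungs was left out. Without day 56 replicates 1, 2, 4 and 5 in turn 23, 20, 7 and 318 genes rose, and without day 14 replicates 1, 3, 4 and 5 in turn 22, 26, 0 and 1 rose. Of the 20 without day 56 replicate 2, 16 were among the 48.

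The most changed regulator that separated the groups fully was Nr4a2 (ENSMUSG00000026826, GRCm38 chromosome 2, 57106830 to 57124003, minus strand), a nuclear receptor that needs no ligand and is switched on as an immediate early gene. It measured 54.7, 28.9, 36.9, 56.9 and 21.7 CPM in the 5 lungs of day 56, against 18.3, 21.7, 9.67, 10.7 and 7.97 CPM in the 5 lungs of day 14. The groups only just failed to touch, since the lowest lung of day 56 and the highest of day 14 both read 21.7 CPM at this rounding. Nr4a2 rose by 1.54 ± 0.29 on the log2 scale (edgeR adjusted p = 0.0144), and it kept its call in 12 of 18 alternative fits. Egr2 (ENSMUSG00000037868, chromosome 10, 67535475 to 67542188, plus strand), a zinc-finger factor of the same fast class, read 28.7, 54.5, 29.2, 54.9 and 18.8 CPM at day 56, against 13.4, 24.8, 7.98, 10.1 and 7.45 CPM at day 14. One lung of each group crossed over, and Egr2 rose by 1.55 ± 0.35 (edgeR adjusted p = 0.0456), a call kept in 6 of the 18 fits. Csrnp1, a nuclear protein first described as induced by axin, rose by 1.31 ± 0.24 (edgeR adjusted p = 0.0128) and read 30.9 to 100.3 CPM at day 56, against 18.2 to 37 CPM at day 14.

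The other called regulators moved less. Nfkbiz, a nuclear IkB protein that helps NF-kB switch on secondary genes, read 74.8, 86.5, 78.3, 108.4 and 59.8 CPM at day 56, against 47.6, 58.1, 41.3, 46.7 and 44.4 CPM at day 14, with no overlap (0.78 ± 0.16, edgeR adjusted p = 0.0292). Maff and Mafg, small MAF partners of the oxidant-response factors, rose by 0.68 ± 0.12 and 0.27 ± 0.06. Nfil3, a bZIP repressor, rose by 0.60 ± 0.14 (called in 4 of the 18 alternative fits), the growth-inhibiting factor Id3 by 0.52 ± 0.12, the co-repressor Irf2bp2 by 0.41 ± 0.08, and Srf, the serum response factor itself, by 0.32 ± 0.07. Of these, Nfkbiz alone was free of overlap between the groups.

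The called genes of signalling were led by Dll1, a ligand of the Notch receptors. It read 106.8, 162.3, 81, 115.7 and 77.7 CPM at day 56, against 55.2, 55.8, 76.3, 51.9 and 53.1 CPM at day 14, and it rose by 0.90 ± 0.16 (edgeR adjusted p = 0.0123). Day 14 replicate 3 stood near the lowest day 56 lung, and the other 4 lungs of day 14 lay well below. Nrarp, a target and brake of Notch signalling, rose by 0.53 ± 0.11 (edgeR adjusted p = 0.0314). Plk3, a stress-responsive polo-like kinase, read 20.0, 25.2, 22.2, 24.7 and 16.2 CPM at day 56, against 13.7, 14.5, 12.5, 11.9 and 12.9 CPM at day 14 (0.73 ± 0.13, edgeR adjusted p = 0.0121). Sik1, a salt-inducible kinase known as a CREB target, rose by 0.92 ± 0.19, Ddit4, an inhibitor of mTOR signalling, by 0.61 ± 0.12, and Ppp1r15a, which restores translation after stress, by 0.59 ± 0.14. These 3 genes overlapped between the groups in at least 1 lung.

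Surface proteins changed little but evenly. Ackr3, a scavenging receptor for the chemokine CXCL12 on endothelium, read 62.5, 67.2, 61.6, 66 and 57.3 CPM at day 56, against 51.1, 46.5, 49.8, 41.6 and 40.6 CPM at day 14. It rose by 0.45 ± 0.08 (edgeR adjusted p = 0.0107). Sema4c, a membrane semaphorin, read 74.5, 90.8, 77.2, 87.2 and 64.6 CPM at day 56, against 55.4, 57.7, 56.5, 57.8 and 60.9 CPM at day 14 (0.45 ± 0.08, edgeR adjusted p = 0.0107). Both genes separated the groups completely, and Sema4c kept its call in 15 of 18 alternative fits. That was the most among the called genes named for size of change or from a list, the ones followed through these fits. Lrrc32, which holds latent TGF-beta at the cell surface, rose by 0.41 ± 0.07 (edgeR adjusted p = 0.0127) and also showed no overlap. Usp2, a deubiquitinase whose transcript is driven by the clock, read 14.6, 13.6, 12.6, 11.2 and 10.5 CPM at day 56, against 9.31, 8.96, 7.84, 7.56 and 8.49 CPM at day 14 (0.57 ± 0.10, edgeR adjusted p = 0.0127).

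Carriers, enzymes and structural genes completed the set. Mat2a, which makes the methyl donor S-adenosylmethionine, read 633, 615, 523, 746 and 409 CPM at day 56, against 399, 453, 332, 284 and 238 CPM at day 14 (0.78 ± 0.16, edgeR adjusted p = 0.0229). Slc25a25, a mitochondrial carrier of ATP and magnesium, rose by 0.90 ± 0.17 and Slc10a6, a carrier of sulphated steroids, by 0.67 ± 0.13. Slc3a2, the heavy chain of amino acid exchangers, rose by 0.35 ± 0.08. In each of these 4 genes the lowest lung of day 56, replicate 5, lay within the day 14 range. Among genes of adhesion and matrix, Itga5, the fibronectin receptor's alpha chain, rose by 0.31 ± 0.07 and Adamts1, a secreted metalloprotease, by 0.72 ± 0.15. Nova2, a splicing factor known from neurons and endothelium, read 42.1, 49.4, 43.3, 45.3 and 40.7 CPM at day 56, against 28.4, 33.2, 39.5, 33.3 and 30.4 CPM at day 14, with no overlap (0.42 ± 0.09, edgeR adjusted p = 0.0375). The remaining coding genes included Arl4d, a small GTPase (0.70 ± 0.15), Avil, an actin-binding villin relative (0.96 ± 0.21), Tob2, an anti-proliferative protein (0.28 ± 0.05), and Fgfr1, a receptor of fibroblast growth factors, which had the smallest rise of the 48 (0.21 ± 0.05).

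Of the 5 genes that fell, 3 separated the groups (1.09% of all genes read lower in every lung of day 56 than in any of day 14). Veph1, a PH-domain protein first described in the ventricular zone of the embryo, read 2.2, 1.16, 1.51, 2.09 and 2.05 CPM at day 56, against 4.72, 3.83, 2.34, 2.70 and 4.01 CPM at day 14 (-0.98 ± 0.20, edgeR adjusted p = 0.0229). B3gnt5, which starts lacto-series glycolipids, read 7.22, 6.42, 10.3, 8.47 and 9.85 CPM at day 56, against 11.9, 13.7, 12.5, 15.2 and 13.3 CPM at day 14 (-0.66 ± 0.14, edgeR adjusted p = 0.0292). Ccdc122 fell by 0.59 ± 0.12 (edgeR adjusted p = 0.0151). The other two, Lactb2, a mitochondrial RNA nuclease in human cells (-0.30 ± 0.07), and Zfp322a, a zinc-finger factor (-0.29 ± 0.07), overlapped in 1 lung or more. None of the 5 was called when day 56 replicate 2 was left out.

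**Figure D1:**
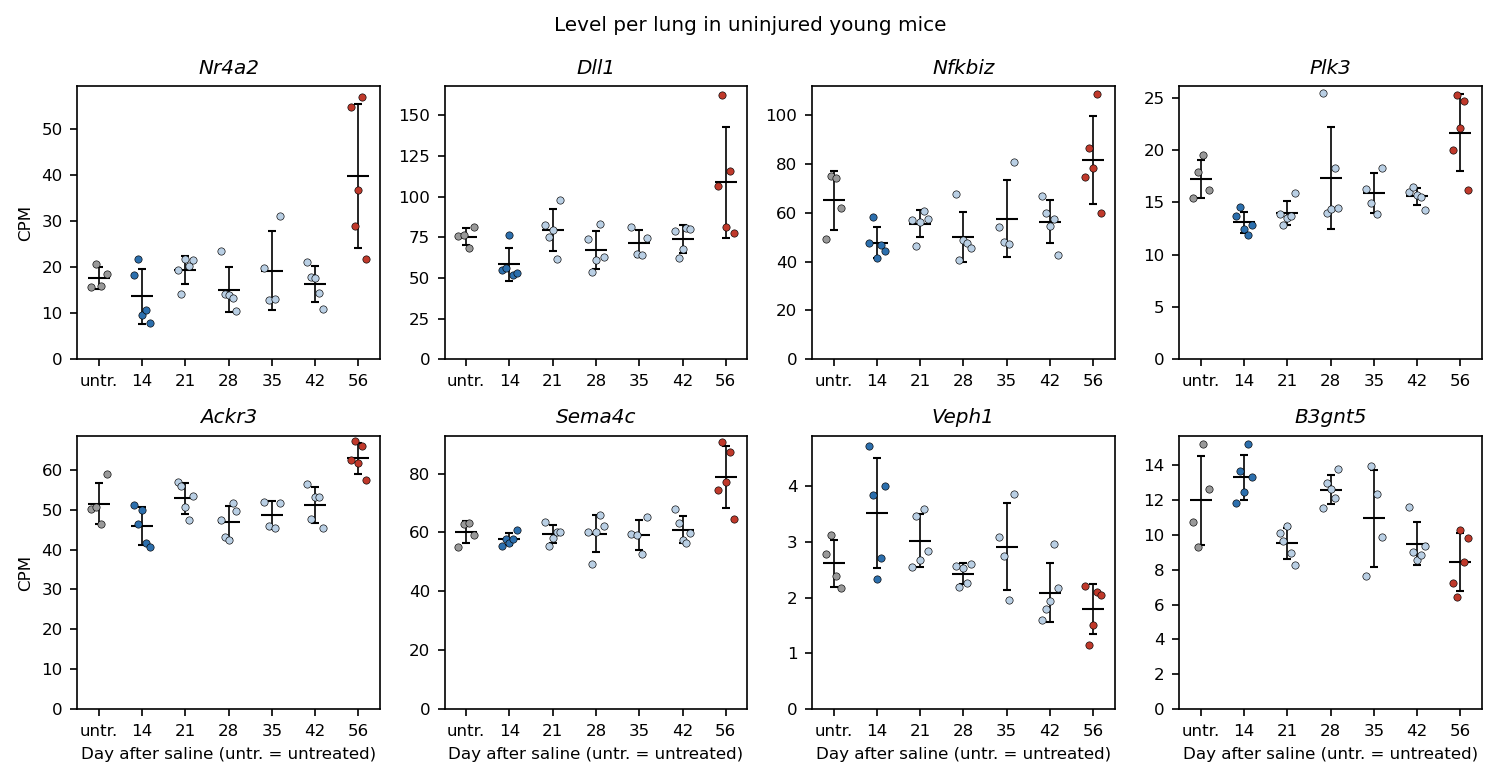
CPM (linear axis from 0) of 8 called genes in each uninjured young lung, by day after saline, with untreated lungs at the left; the bar is the group mean and the whisker its SD. The mean of day 56 (red) is the highest of the saline days for the 6 genes that rose, and the lowest for Veph1 and B3gnt5.

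Promoters of the genes that rose are shown because the immediate early class is known to use 2 short motifs, the cAMP response element (CRE, TGACGTCA, and its shorter half-site TGACG, which every CRE also contains) and the CArG box of serum response factor. RefSeq windows on GRCm38.p6, from 250 bases before to 50 after the start site, existed for 38 of the 48 genes. On either strand the half-site stood in 19 of the 38 windows, or 50%, and in 3653 of 12317 windows of tested genes, or 29.7%. The full CRE stood in 2 windows (5.26%, against 3.03% of all), the CArG box in 1 (2.63%, against 1.32%), the clock's E-box CACGTG in 4 (10.5%, against 9.46%) and its D-box TTATGTAA in 0 (against 0.625%). Capitals mark these CRE, half-site and CArG matches in the 4 windows below, which were picked after the search because they hold the most half-sites (Nr4a2), a full CRE (Ppp1r15a and Arl4d) or a CArG box (Srf). The windows of Egr2, Dll1 and Ackr3, searched in the same way, hold none of these 3, and a match is not a bound site. In the Nr4a2 window the farthest of the 4 half-sites centres 198 bases upstream of the start, in the Ppp1r15a window the CRE centres 9 bases upstream, and in the Srf window the 2 CArG boxes centre 78 and 58 bases upstream.
Nr4a2, chr2:57123954-57124253, minus strand: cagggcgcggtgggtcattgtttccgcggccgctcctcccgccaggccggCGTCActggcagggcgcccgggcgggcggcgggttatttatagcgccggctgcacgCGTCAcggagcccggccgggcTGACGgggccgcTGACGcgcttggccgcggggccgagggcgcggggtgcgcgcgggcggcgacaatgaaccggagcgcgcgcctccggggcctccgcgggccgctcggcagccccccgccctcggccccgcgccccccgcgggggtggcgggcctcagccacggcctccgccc
Ppp1r15a, chr7:45526219-45526518, minus strand: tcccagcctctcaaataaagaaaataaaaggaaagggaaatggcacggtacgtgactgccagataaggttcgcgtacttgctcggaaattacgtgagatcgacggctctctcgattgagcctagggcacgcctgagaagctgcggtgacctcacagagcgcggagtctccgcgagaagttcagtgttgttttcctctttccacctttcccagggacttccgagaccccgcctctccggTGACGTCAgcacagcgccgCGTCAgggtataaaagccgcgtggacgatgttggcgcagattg
Arl4d, chr11:101665291-101665590, plus strand: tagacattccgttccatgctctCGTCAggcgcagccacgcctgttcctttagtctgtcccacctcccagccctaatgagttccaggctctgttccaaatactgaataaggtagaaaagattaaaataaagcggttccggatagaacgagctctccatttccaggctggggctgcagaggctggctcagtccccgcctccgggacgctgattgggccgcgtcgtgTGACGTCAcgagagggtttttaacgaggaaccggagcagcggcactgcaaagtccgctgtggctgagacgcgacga
Srf, chr17:46556113-46556412, minus strand: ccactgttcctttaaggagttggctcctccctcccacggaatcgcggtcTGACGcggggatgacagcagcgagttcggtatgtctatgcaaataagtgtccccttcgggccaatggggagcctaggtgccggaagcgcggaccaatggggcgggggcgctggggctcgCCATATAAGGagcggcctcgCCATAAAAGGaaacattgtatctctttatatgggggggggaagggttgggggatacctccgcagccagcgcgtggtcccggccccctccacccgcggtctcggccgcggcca

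The day 56 lungs were not alike. Among the 48 genes that rose, day 56 replicate 5 was the lowest of its group for 42 and day 56 replicate 2 the highest for 27. At day 14, replicate 5 was the lowest for 26 and replicate 2 the highest for 20. Without day 56 replicate 5 the edgeR count went up to 318 higher, or 1.86% of genes, with 0.724% lower. The list of immediate early and handling genes ran the same way. Its mean log2 CPM was 7.25, 7.53, 7.04, 7.59 and 6.61 at day 56, against 6.65, 6.98, 5.91, 6.01 and 5.62 at day 14, and 5.96 to 7.12 over the 19 lungs of days 21 to 42. All 23 members had a fold change above 0, with a median of 0.94 on the log2 scale, against 0.0025 over all genes tested, and 21 had an unadjusted p under 0.05, but 2 passed the test, Nr4a2 and Egr2. Over the fits without 1 lung 0 to 14 passed. It was 14 without day 56 replicate 5, 10 without day 14 replicate 2, and 0 without day 14 replicate 4, day 14 replicate 5 or day 56 replicate 4. DESeq2 called 10, and edgeR on the compared groups alone called 0. Fos, the founding member of its family, read 1.12 ± 0.38 on the log2 scale (edgeR adjusted p = 0.194), from 326 to 725 CPM at day 56, against 63.9 to 544 CPM at day 14. With the mean of this list as a covariate, a fit chosen after seeing the data, edgeR called 0 genes in either direction, with 766 at an unadjusted p under 0.05. Of the 53 called genes, 33 had an unadjusted p under 0.05. That covariate differed between the groups, as listed above, and includes Nr4a2 and Egr2. The fit could therefore take away any change between the days, and nothing is read from the 0. RNA quality scores and the time from death to freezing are not given in the sources used here, so what share of the list's shift belongs to either was not tested.

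Genes of stress hormones and heat shock had shifts of the same sign. Of 14 glucocorticoid-response genes 12 were above 0 and 9 had an unadjusted p under 0.05, with a median of 0.41. EdgeR called none and DESeq2 6, and without 1 lung edgeR called 0 to 6, with 0 in 7 of the 10 fits and 6 without day 56 replicate 5. Mt2, a metal-binding metallothionein, read 21.5, 42.7, 23, 20.1 and 12.7 CPM at day 56, against 12.7, 17.1, 8.71, 9.86 and 9.06 CPM at day 14 (1.07 ± 0.25, edgeR adjusted p = 0.0582). The 22 heat shock and folding genes had a median of 0.26, with 10 under an unadjusted p of 0.05, none called by edgeR and 1 by DESeq2. Hspa1a, an inducible HSP70, reached 251 CPM in day 56 replicate 2 and 14.0 CPM in replicate 5, against 10.6 to 62.6 CPM at day 14. Of 19 clock genes and outputs 2 rose, Usp2 and Nfil3, with 4 called by DESeq2 and 0 to 6 by edgeR over the fits without 1 lung. The core activator Arntl read 53.8 ± 3.68 CPM at day 56 and 50.6 ± 4.39 CPM at day 14, and the output factor Dbp read -0.78 ± 0.36 on the log2 scale (edgeR adjusted p = 0.33). Dbp stood at 4.29 to 11.1 CPM at day 56, against 5.79, 7.86, 7.06, 14.6 and 33.2 CPM at day 14, whose mean leaned on replicate 5. With a clock score as a covariate the edgeR counts were again 48 and 5, with 44 of the 48 and all 5 shared. That score, clock output genes minus Arntl and Npas2, left out Usp2 and Nfil3. It overlapped between the groups, at -0.51 to 0.79 in lungs of day 56 and -0.05 to 1.35 in those of day 14. The fit could therefore change little, and a part of the clock was not tested.

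**Figure D2:**
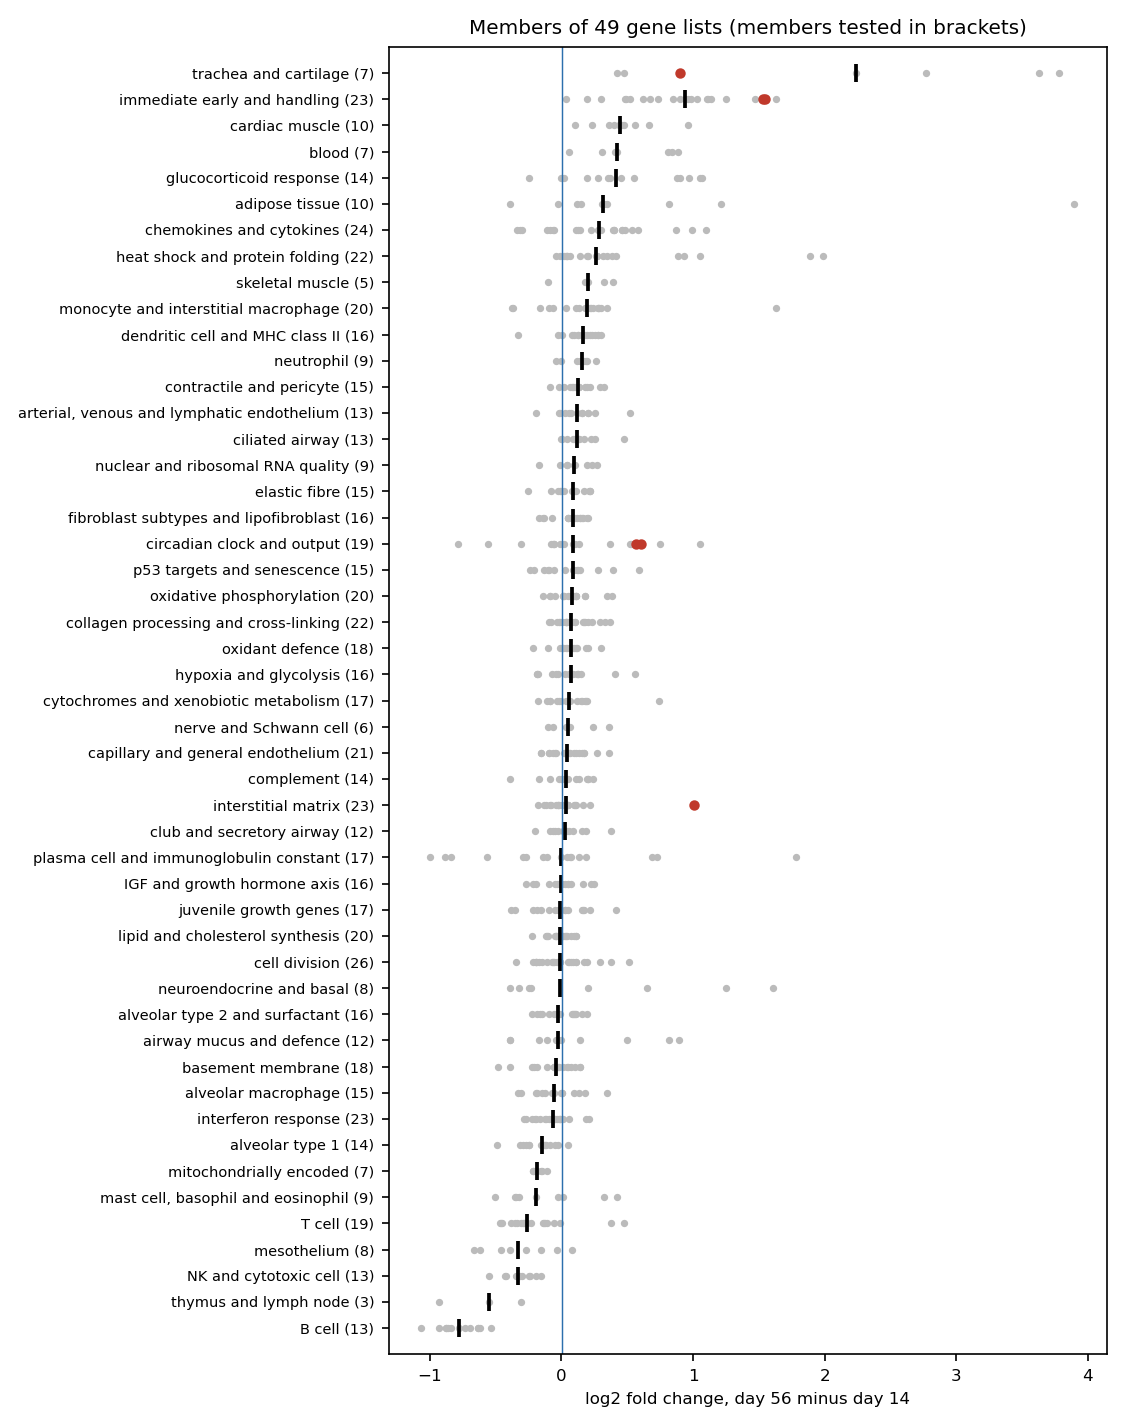
Log2 fold change, day 56 minus day 14, of every tested member of 49 gene lists; red points passed the test, black ticks are list medians and the blue line is the median of all genes. Cartilage (2.24) and immediate early genes (0.94) had the highest medians and B cell genes (-0.77) the lowest, and called members appear in 4 lists. Some cartilage genes could pass the filter on lungs of day 56 alone.

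Cartilage transcripts were high in 4 of the 5 lungs of day 56. Collagen X, Col10a1 (ENSMUSG00000039462, chromosome 10, 34389981 to 34397085), made by cartilage cells that are about to mineralise, read 5.92, 0, 1.56, 2.76 and 2.60 CPM at day 56, against 0.232, 0, 0, 0.250 and 0 CPM at day 14 (edgeR adjusted p = 0.0343). Replicate 2 of day 56 held none, like 3 lungs of day 14. The proteoglycan Acan read 5.53, 0.0661, 3.60, 3.14 and 1.46 CPM at day 56, against 0.324, 0.240, 0, 0.350 and 0.156 CPM at day 14 (3.63 ± 0.95, edgeR adjusted p = 0.0937). Cytl1, a secreted cartilage protein, was the called member of the list of 7, at 27.6, 12.3, 22.5, 19.5 and 15.1 CPM at day 56, against 11.3, 11.7, 9.21, 10.3 and 9.01 CPM at day 14, without overlap (0.90 ± 0.19, edgeR adjusted p = 0.0336), a call kept in 6 of 18 alternative fits. All 7 members were above 0 with a median of 2.24, but some, such as Acan, were near 0 CPM at day 14. The filter could pass these, and Col10a1, on the 4 high lungs of day 56 alone. Nothing is therefore read from the list median or the Col10a1 call. With the compared groups alone 4 members were tested, with a median of 0.69. The mean log2 CPM of the list was 1.65, -1.29, 1.18, 0.91 and 0.32 at day 56, against -1.23 to -0.58 at day 14. Day 56 replicate 2 was thus the lowest of the 10 lungs and the other 4 of its group were the highest, while among the lungs of days 21 to 42 the score reached 0.55. The score includes the members that could pass the filter on those 4 lungs alone, so nothing is read from this order. In old saline lungs, scored with both ages together, the list score ran from -1.28 to 1.68 at day 56, with a median of -0.93. At day 14 the old lungs ran from -1.03 to -0.21. A high score was thus not particular to young lungs of day 56. The amount of main airway in each 20 mg piece is not given, so its part was not tested. Over the fits without 1 lung the list had 0 to 4 called members, and 0 in 7 of the 10, with 4 when day 56 replicate 5 was left out and 2 when day 56 replicate 2 was. DESeq2 called 2. With the list's mean as a covariate, again chosen after seeing the data, 99 genes rose and 21 fell.

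**Figure D3:**
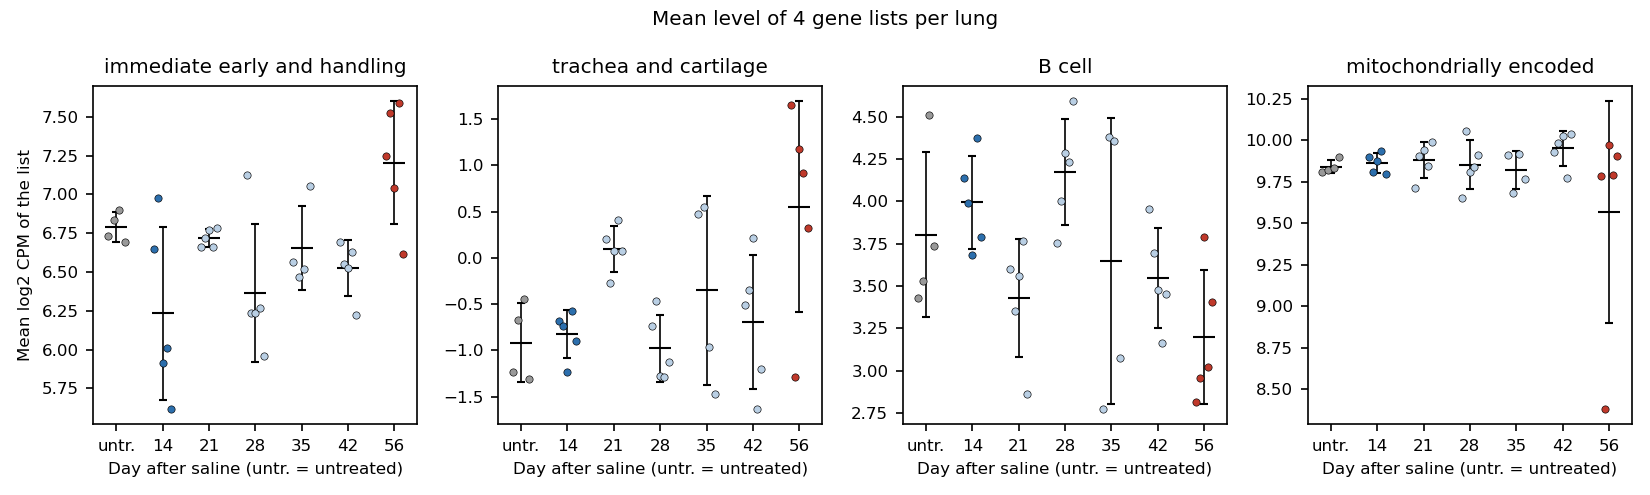
Mean log2 CPM of the tested members of 4 lists in each uninjured young lung, by day after saline, with mean and SD. Immediate early genes were at 6.61 to 7.59 in the lungs of day 56 and cartilage genes were raised in 4 of them, while day 56 replicate 2 lay apart for mitochondrial transcripts, at 8.38. Some cartilage genes could pass the filter on the 4 raised lungs alone.

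B cell genes read lower at day 56, but none passed the test by edgeR or DESeq2. All 13 members were below 0, with a median of -0.77, and 12 had an unadjusted p under 0.05, against 13.8% of all genes. The mean log2 CPM of the list was 2.82, 2.96, 3.79, 3.02 and 3.41 at day 56, against 4.14, 3.99, 3.68, 4.37 and 3.79 at day 14, so that 1 lung of day 56 stood within the day 14 range, and the days between spanned 2.78 to 4.59. Cd79a, a signalling chain of the B cell receptor, read 9.37, 9.16, 17.6, 9.37 and 11.6 CPM at day 56, against 23.9, 20.3, 16.4, 26 and 18.2 CPM at day 14 (-0.88 ± 0.29, edgeR adjusted p = 0.174). T cell genes had a median of -0.26 and NK genes of -0.33, with 7 of 19 and 2 of 13 members at an unadjusted p under 0.05, against 13.8% of all genes, and none called by edgeR or DESeq2. In whole-lung RNA fewer cells of a type and less RNA per cell cannot be told apart. Mesothelial genes, from the covering of the lung, had a median of -0.33. Their mean log2 CPM was 3.93 to 4.78 at day 56, against 4.06 to 4.92 at day 14 and 5.32 to 5.92 in untreated lungs. The days between spanned 4.80 to 5.58, above every lung of day 56, so the score did not fall steadily with day.

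Of the lists of matrix and growth genes 1 member passed the test. Of 23 interstitial matrix genes, Thbs1, which encodes the matricellular protein thrombospondin 1 and is also an inducible gene, rose, at 473, 838, 455, 731 and 384 CPM at day 56, against 331, 391, 191, 305 and 219 CPM at day 14 (1.0 ± 0.22, edgeR adjusted p = 0.0421), a call kept in 7 of 18 alternative fits. Replicate 5 of day 56 lay below 1 lung of day 14. The other 22 did not pass, and the list median was 0.04. Col1a1, the main fibrillar collagen, read 445, 699, 479, 475 and 481 CPM at day 56, against 475, 536, 435, 543 and 500 CPM at day 14 (0.05 ± 0.10, 95% interval -0.16 to 0.27), and 1 lung of day 56, replicate 2, stood far above the other 4. Col3a1 read -0.08 ± 0.10 and the elastin gene Eln 0.08 ± 0.07 on the log2 scale. Of the 22 genes of collagen processing, 18 of basement membrane and 15 of the elastic fibre, none was called by edgeR or DESeq2, with 6, 1 and 4 at an unadjusted p under 0.05, against 13.8% of all genes, and list medians of 0.07, -0.04 and 0.09.

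Genes of growth and division gave no call by edgeR or DESeq2. Of 26 cell division genes 1 had an unadjusted p under 0.05, with a list median of -0.01, and the proliferation marker Mki67 read 5.64, 4.73, 6.58, 5.66 and 4.92 CPM at day 56, against 7.36, 6.04, 6.10, 7.36 and 4.43 CPM at day 14. The 17 tested juvenile growth genes, imprinted and fetal genes that are turned down as growth ends, had a median of -0.01 with 2 at an unadjusted p under 0.05, and the 16 genes of the IGF and growth hormone axis a median of -0.0027 with 3. Type 2 cell genes had a median of -0.02 and endothelial genes of 0.04, with 2 and 4 at an unadjusted p under 0.05 and none called. Type 1 cell genes were below 0 for 13 of 14 members, with a median of -0.15, 2 at an unadjusted p under 0.05 and none called. Ager, the type 1 receptor gene, averaged 1995 ± 339 CPM at day 56 and 2115 ± 170 CPM at day 14, and Pecam1, of endothelium, 899 ± 32.9 CPM at day 56 and 880 ± 26.7 CPM at day 14.

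The lungs taken between the 2 days were used to ask whether the change ran evenly. The pairwise tests of days 21, 28 and 35 against day 14 called 0 genes each (0%) by edgeR, with 1309, 1150 and 820 genes at an unadjusted p under 0.05, and that of day 42 called 2 (0.0117%). Day 56 against day 42 called 62 genes (0.361%), 25 higher (0.146%) and 37 lower (0.216%). These contrasts share their lungs with the comparison of day 56 with day 14. Over the 48 genes that rose, the median log2 fold change against day 14 stood at 0.21, 0.13, 0.19 and 0.18 for days 21, 28, 35 and 42, and at 0.65 for day 56. A straight line over all 29 saline lungs called 10 genes (0.0583%), 9 rising (0.0525%) and 1 falling (0.00583%), and 6 of the 48 higher genes and 1 of the 5 lower ones were among them. Their slopes per 7 days on the log2 scale included 0.06 ± 0.01 for Lrrc32, 0.07 ± 0.01 for Sema4c, 0.06 ± 0.01 for Grasp, a scaffold of G-protein-coupled receptors, and -0.16 ± 0.03 for Veph1 (edgeR adjusted p = 0.0254 each). This trend rests on day 56, since leaving out replicate 1, 2, 3 or 4 of that day brought its count to 0, and leaving out replicate 5 brought it to 227. Without day 14 replicates 1, 4 and 5 in turn it was 4, 6 and 5, and without day 42 replicate 5 it was 17.

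The 19 lungs of days 21 to 42 give a slope that shares no lung with the contrast. It called 0 genes (0%) by edgeR, with 1373 at an unadjusted p under 0.05, and 8 by DESeq2. Of the 48 genes, 18 had a positive slope and 1 of these an unadjusted p under 0.05, where 50.6% of all genes had a positive slope, and the median slope was -0.01 per 7 days. Nr4a2 read -0.04 ± 0.08 per 7 days there, Dll1 -0.02 ± 0.04 and Ackr3 -0.01 ± 0.02. Of the 5 lower genes 3 had a negative slope, among them Veph1 at -0.14 ± 0.06 (unadjusted p = 0.0327, edgeR adjusted p = 0.598), and Ccdc122 rose within these days by 0.09 ± 0.04 per 7 days (unadjusted p = 0.0201, edgeR adjusted p = 0.57).

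Old saline lungs of the same days gave an independent pair of groups, 11 lungs at day 56 and 6 at day 14, and asked whether the change belonged to the young. In old lungs 25 genes were called (0.139% of 17952), 12 higher (0.0668%) and 13 lower (0.0724%), and of the 48 genes 0 were called by edgeR in either direction, with a median log2 fold change of -0.03. Nr4a2 had a lowest, median and highest value of 12.0, 22.8 and 39.9 CPM in old lungs at day 56, against 23.6, 33.9 and 82.3 CPM in old lungs at day 14. The change was -0.88 ± 0.25 in old and 1.54 ± 0.29 in young lungs, and the difference, old minus young, was -2.42 ± 0.41 (edgeR interaction, adjusted p = 0.00106). Kcne4, a subunit that tunes potassium channels, read 20.5, 33.9 and 53.6 CPM as the lowest, median and highest in old lungs at day 56, against 33.5, 48.1 and 58.4 CPM in old lungs at day 14. Its change was -0.47 ± 0.18 in old and 1.27 ± 0.24 in young lungs (difference -1.74 ± 0.30, edgeR adjusted p = 0.00106).

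In all, 46 genes differed in their change between the ages (0.256%), each with the old change the lower one. Among the 48 genes 21 were in this set, a count that reads nothing more, since the young values that chose them enter it; the old change above does not use them. Odc1, the first enzyme of polyamine synthesis, differed by -0.69 ± 0.12 (edgeR adjusted p = 0.00106), Nap1l5, an imprinted histone chaperone relative, by -1.69 ± 0.29 (0.00107), Sik1 by -1.32 ± 0.24 (0.0017) and Adamts1 by -1.05 ± 0.19 (0.0017). Odc1 itself did not pass the test in young lungs (0.32 ± 0.09, edgeR adjusted p = 0.113) and fell in old lungs (-0.37 ± 0.07, edgeR adjusted p = 0.00997). The immediate early score had a lowest, median and highest of 6.31, 6.70 and 7.09 in old lungs at day 56 and 6.65, 6.93 and 7.51 in old lungs at day 14. On the same scale it was 6.62, 7.25 and 7.59 in young lungs at day 56 and 5.63, 6.02 and 6.99 in young lungs at day 14. The young lungs of day 14 were thus the low group and those of day 56 the high one. Leaving out 5 old saline lungs of day 56 whose library numbers stand apart from the rest brought the 46 genes to 8, and fitting the 4 compared groups alone brought them to 7. Leaving out 1 young lung gave 22 and 23 without day 56 replicates 2 and 4, and 29, 23 and 17 without day 14 replicates 3, 4 and 5. Leaving out old day 14 replicate 4 gave 19.

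**Figure D4:**
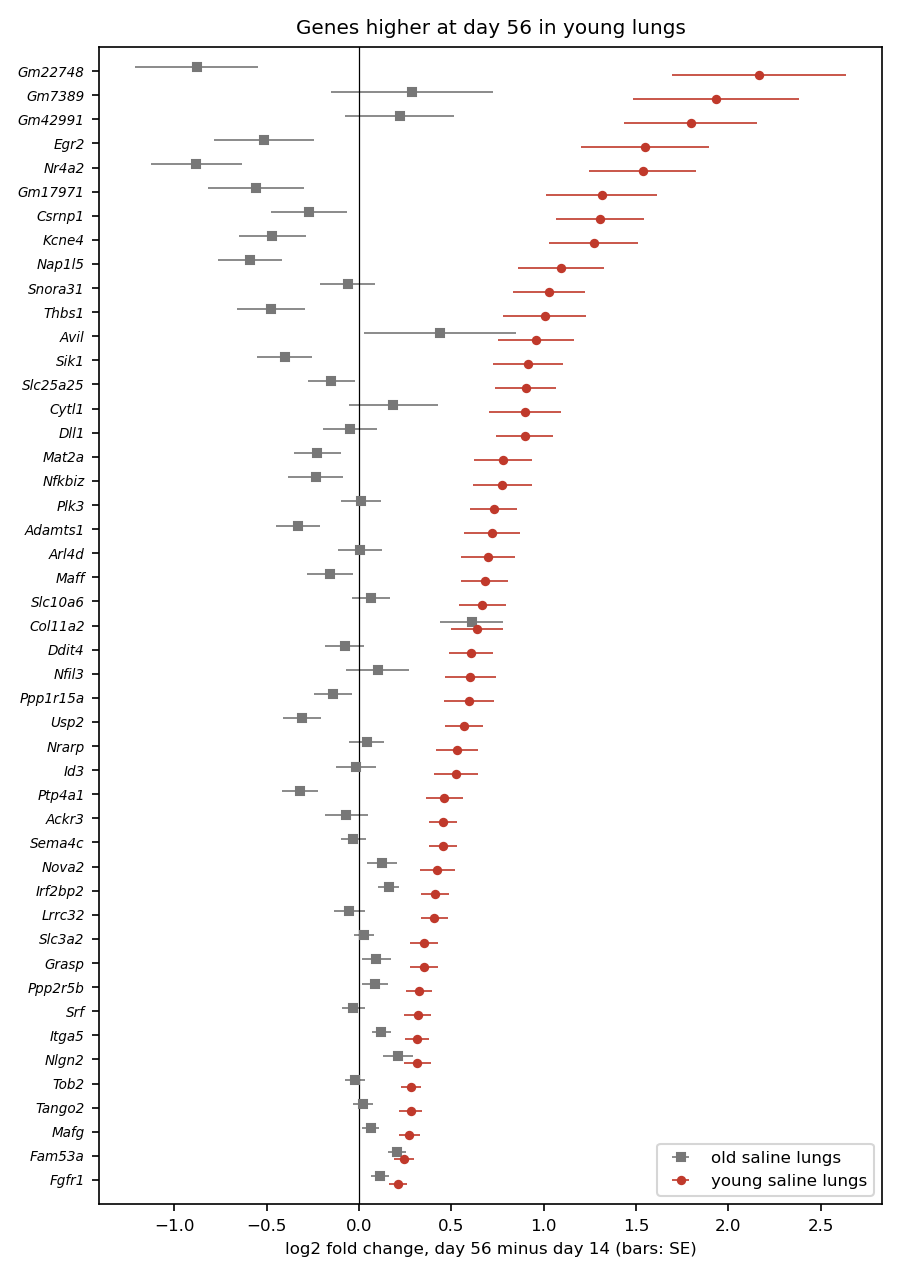
Log2 fold change, day 56 minus day 14, with SE for the genes that rose in young saline lungs, Col10a1 left out for its large error, in old (grey squares) and young (red circles) saline lungs. The young values chose the genes and so lie above 0 by selection; the old values centre near 0, with a median of -0.03.

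A wider age gap was read in untreated lungs, which share no lung with the contrast. Old minus young untreated lungs gave 1578 called genes (8.79% of 17952), 1010 higher (5.63%) and 568 lower (3.16%), and the count was 862 without old replicate 4 and 468 without young replicate 4. Of the 48 genes that rose over the 6 weeks, 2 were also higher in old lungs, Usp2 (0.53 ± 0.14) and Nap1l5 (1.02 ± 0.25), and 0 were lower. Of the 5 that fell, 1 was lower in old lungs, Veph1, at -1.65 ± 0.31 (edgeR adjusted p = 0.000591). Col3a1 fell with age by 0.72 ± 0.16 (edgeR adjusted p = 0.00312) where it read -0.08 ± 0.10 over the 6 weeks in young lungs.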

How the data were processed

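Whole-lung RNA was sequenced after poly-A selection with a TruSeq mRNA kit, per the labels' protocols. The deposited file holds whole-number read counts per gene, not normalized, for 48794 genes in libraries of 14.91 to 31.02 M reads. The submitters' processing notes name bcl2fastq 2.20.0.422, STAR 2.5.2b, featureCounts 1.5.1 and RSEM 1.3.0, with no roles; which of them made the counts, and whether strand was used, is not given in the sources used here. Gene symbols and positions were matched by identifier to GENCODE on GRCm38, for 17110 of 17152 tested genes.

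Counts were fitted in edgeR 4.0.16 (R 4.3.3) with TMM scaling, a filter on low counts and the robust quasi-likelihood test, over 33 young uninjured libraries. The filter asked for the CPM of about 10 reads in at least as many libraries as the smallest group, 4, and for 15 reads in total. Those libraries could be of any group. Each group had its own coefficient, which leaves 26 residual degrees of freedom. All groups were kept so that they share 1 estimate of the spread, whose common biological coefficient of variation was 11.5%. The median standard error of a log2 fold change was 0.10. Trends used the slope per 7 days, and the ages were compared in 1 fit of the uninjured libraries of both ages, with 17952 genes. List scores are mean log2 CPM with a prior count of 2. DESeq2 1.42.0 was an alternative, and the steps were also run on simulated counts. Those counts held no shift shared by the genes of a lung, so they cannot show how the calls depend on single lungs. Genes to name were, for day 56 against day 14, up to 8 called genes in each direction, by size of change, that showed no overlap between the lungs and averaged above 1 in log2 CPM, without predicted genes; up to 3 called members of each list; a panel of lung, clock and immune genes; and the called genes of lowest p in the trends and the age difference. Others were chosen after their values were seen. The members and gene lists were chosen with earlier results of these data known.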

Additional observations from a re-analysis of the deposited data

Results flagged for a closer look

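In groups of 5 lungs, 13 of 166 sets of values examined held 1 lung apart from the other 4 by a gap of more than 0.71 of the range in log2 CPM, and chance gives about 1 in 20. At day 56, Ccdc122 read 3.89 CPM in replicate 1, against 2.84 to 3.08 CPM in the rest. Col1a1 read 699 CPM in replicate 2, against 445 to 481 CPM, and the mitochondrial score was 8.38 there, against 9.79 to 9.97. At day 14, Dll1 read 76.3 CPM in replicate 3, against 51.9 to 55.8 CPM, and the nerve and Schwann cell score was 3.5 in the same lung, against 3.86 to 3.96. Replicate 4 of day 14 had Pecam1 at 926 CPM, against 858 to 875 CPM, a dendritic cell and MHC class II score of 4.67, against 4.36 to 4.43, and a complement score of 6.05, against 5.84 to 5.89. Replicate 5 of day 14 had Jchain at 4.17 CPM, against 13.2 to 20.7 CPM, Arntl at 42.9 CPM, against 51.8 to 53.4 CPM, and a p53 score of 5.82, against 5.57 to 5.61. Replicate 1 of day 14 had a collagen processing score of 5.42, against 5.56 to 5.62, and a mesothelium score of 4.06, against 4.71 to 4.92.

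The change between the days differed between the ages, by the interaction in edgeR, for 13 named genes, each lower in old than in young lungs. Beyond Nr4a2 (-2.42), Kcne4 (-1.74), Nap1l5 (-1.69), Sik1 (-1.32), Adamts1 (-1.05) and Odc1 (-0.69), these were Egr2 (-2.07, adjusted p = 0.0114), Thbs1 (-1.49, adjusted p = 0.00701), Nfkbiz (-1.01, adjusted p = 0.0318), Dll1 (-0.95, adjusted p = 0.0459), Usp2 (-0.88, adjusted p = 0.0045), Plk3 (-0.72, adjusted p = 0.0436) and Sema4c (-0.49, adjusted p = 0.0157). All but Odc1 were called in young lungs, so their young change was high by selection.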

How the results depend on the processing

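Among the named genes none that was called changed sign in an alternative, and 7 that were not called did in at least 1 (Fos, Jchain, Col1a1, Col3a1, Scgb1a1, Ager and Arntl). Of the list medians, the immediate early one was -0.01 with the handling score and the cartilage one -0.42 with the cartilage score, each covariate being made from its own list, and the mitochondrial (-0.53 to 0.03), interstitial matrix (-0.04 to 0.07) and cell division (-0.07 to 0.02) medians took either sign. Counts of called genes are given as the percent of the genes each fit tested, which were 0.28% higher, 0.0292% lower, 0.0583% in the trend of days 14 to 56, 0% in that of days 21 to 42, 0.256% differing between the ages in their change and 8.79% between old and young untreated lungs. With no filter beyond 1 read, 0.0831% were higher (26 genes), 0.00959% lower (3) and 3.12% differed in untreated lungs. DESeq2, run on every gene with at least 1 read, gave 0.407% higher, 0.141% lower (44 genes), 0.428% in the longer trend and 0.0267% in the shorter one (8). The compared groups alone gave 0.00618% higher (1 gene), 0% lower, 0.0409% for the age difference (7) and 0.549% for untreated lungs (91). Fitting every library of the series gave 0.0109% lower (2 genes) and 5.55% for untreated lungs. Without the 5 old libraries numbered apart the age difference was 0.0447% (8 genes). With covariates chosen after seeing the data, the handling score gave 0% higher and 0% lower, and the cartilage score 0.577% higher (99 genes) and 0.122% lower (21). Both scores themselves differed between most lungs of the compared groups, so nothing is read from these fits. Leaving out 1 library at a time gave 0 to 1.86% higher, 0 to 0.724% lower, 0 to 1.32% in the longer trend, 0 to 0% in the shorter one, 0.0947 to 0.379% for the age difference and 2.58 to 8.86% for untreated lungs, whose lowest came without young replicate 4. The cause of these shifts was not tested. In every fit without 1 of the 10 compared lungs, each of the 53 called genes kept an unadjusted p under 0.05. The same lungs chose these genes, so nothing is read from this. Fos passed the test without day 14 replicate 2 (1.68, edgeR adjusted p = 0.03). No paired analysis was possible because groups have no replicate numbers in common in the labels. The smallest called change was 0.21 on the log2 scale, and every called change was at least 4.3 times its standard error, so that changes smaller than this relative to their error went uncalled.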
